A study of Mus musculus with 14 samples.

Results

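The genes described here are 10 genes of the RNA m6A pathway, out of 24064 genes in a count table of single mouse oocytes. They are Rbm15 and Rbm15b, the methyltransferase genes Mettl3, Mettl14 and Wtap, the reader genes Ythdf1, Ythdf2, Ythdf3 and Ythdc1, and the eraser gene Alkbh5. Rbm15 was chosen by its lower level in mutant than in control oocytes, so its values in that contrast are given as a description with no test, and the other 9 were taken for their known function. All 10 were among the 9198 genes kept for testing.

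The study addressed the role in early mouse development of the histone demethylase KDM1A (LSD1) that the embryo inherits from the oocyte, and single oocytes were sequenced to compare the transcripts of mutant and control oocytes. Mutant oocytes (Lsd1/Kdm1a mko/mko, n = 5) came from females whose conditional Kdm1a alleles, with loxP sites around the first exon, were recombined by a Cre under the Zp3 promoter, which is active in growing oocytes. The 5 control oocytes were 4 Lsd1/Kdm1a wt/wt oocytes of strain C57BL/6J (wt1, wt3, wt4 and wt5) and 1 Lsd1/Kdm1a flox/flox oocyte without Cre (C3, here f/f). The f/f oocyte and the mutants (named D1 to D4 and D7) were of mixed B6;129 background. No treatment is labelled, and the study's methods state an age for the females used to collect embryos but do not say whether it holds for those that gave the oocytes. The labels number 8 mutant and 2 f/f samples as separate oocytes. Libraries whose titles share an oocyte name were read as 1 oocyte and summed, and the numbers of oocytes depend on this. Strain and the naming of the libraries both separate wt/wt from all other oocytes, so strain cannot be told apart from genotype in the comparison with wt/wt, and only the 1 f/f oocyte shares its background with the mutants.

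N6-methyladenosine (m6A) is a methyl mark placed on adenosines inside mRNA. The catalytic subunit METTL3 works as a pair with METTL14, and WTAP, VIRMA, ZC3H13, HAKAI (Cbll1) and RBM15 or its paralogue RBM15B form the rest of the writer complex, with the RBM15 proteins binding RNA. YTH domain proteins read the mark, YTHDC1 in the nucleus and YTHDF1, YTHDF2 and YTHDF3 in the cytoplasm, and ALKBH5 and FTO remove it. In the mouse oocyte, where transcription stops before maturation and stored mRNA has to be kept and then cleared, YTHDF2 and YTHDC1 are known to be needed for fertility. The counts measure the mRNA of these genes and not m6A. The study describes the oocytes as ovulated, and its method captures mRNA by the poly(A) tail. A change in the tails of a stored mRNA therefore cannot be told apart here from a change in its amount.

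Library totals, after the libraries of a shared oocyte name were summed, ran from 1375187 to 6928548 counts per oocyte. Levels are given as CPM, counts scaled to a common library size adjusted by TMM, a scaling that sets most genes equal between libraries. On this scale 3 counts corresponded to 0.455 (D4) to 1.82 CPM (D2). Kdm1a, the deleted gene, stood at 12.1 to 38.7 CPM in wt/wt, at 148 CPM in the f/f oocyte and at 0 to 4.97 CPM in mutants. A gene was called where the edgeR quasi-likelihood test gave an adjusted p (Benjamini-Hochberg over the 9198 genes) under 0.05 and a log2 fold change of at least 1 in size. By this rule 25.9% of all tested genes were called, 14.7% higher and 11.2% lower in mutants. Summed over 11 oocyte markers, the level was 10853 to 27737 CPM in wt/wt, 50003 in f/f and 52902 to 109250 in mutant oocytes, and 8 of the 11 were called, all higher in mutants. Of 16 cumulus and granulosa cell markers, 9 were at 0 in every oocyte, Fshr, Amh, Inha and Foxl2 among them, and the summed level was 11.2 to 67.9 CPM in wt/wt, 69.6 in f/f and 83.9 to 155 in mutant oocytes, most of it from Cyp19a1 (mean 31.5 CPM in wt/wt and 105.5 in mutants), while Kitl (5.39 and 4.32) and Has2 (2.59 and 0.122) had lower means in mutants. The part of these markers in the results that follow was not tested. Each library came from 1 oocyte, and C3, D3, D4 and D7 had 2 libraries each. Levels are relative to the library size, so a lower CPM cannot be told apart from a rise of the rest of an oocyte's mRNA.

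The promoters of 3 genes are printed because the levels of these genes set the groups apart. Rbm15 (GRCm38, chr3:107325421-107333673, minus strand), Rbm15b (chr9:106880918-106887428, minus strand) and Alkbh5 (chr11:60536381-60558512, plus strand) each have an entry in the RefSeq promoter table (GRCm38.p6), as do 8 of the 10 genes. Each sequence runs 5′ to 3′ on the strand of the gene, from 250 bases before to 50 bases after the start. They lie at chr3:107333240-107333539, chr9:106887026-106887325 and chr11:60537433-60537732. Capitals mark matches on either strand to short motifs, each given here with the share of 32851 promoters of the same length that hold it. The E-box was searched as CACGTG (7.15% of promoters). The GC box was searched as GGGCGG (35.7%). The CCAAT box was searched by its name (37.4%). The CRE core was searched as TGACG (20.8%) and did not occur in these 3 windows. The TATA box motif was searched as TATAAA (13.6%) and did not occur in them.
Rbm15: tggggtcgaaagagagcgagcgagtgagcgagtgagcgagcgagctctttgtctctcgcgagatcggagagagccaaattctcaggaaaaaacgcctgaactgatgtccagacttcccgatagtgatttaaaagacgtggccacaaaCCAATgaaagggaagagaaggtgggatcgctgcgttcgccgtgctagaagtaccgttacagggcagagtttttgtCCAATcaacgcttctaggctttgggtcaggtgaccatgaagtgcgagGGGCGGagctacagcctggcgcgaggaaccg
Rbm15b: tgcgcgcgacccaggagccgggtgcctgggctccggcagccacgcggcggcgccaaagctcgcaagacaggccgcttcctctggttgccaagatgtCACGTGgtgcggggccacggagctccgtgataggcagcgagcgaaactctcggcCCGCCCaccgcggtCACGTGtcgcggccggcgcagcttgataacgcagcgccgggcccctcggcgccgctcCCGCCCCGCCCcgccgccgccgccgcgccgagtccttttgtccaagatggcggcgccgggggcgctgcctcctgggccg
Alkbh5: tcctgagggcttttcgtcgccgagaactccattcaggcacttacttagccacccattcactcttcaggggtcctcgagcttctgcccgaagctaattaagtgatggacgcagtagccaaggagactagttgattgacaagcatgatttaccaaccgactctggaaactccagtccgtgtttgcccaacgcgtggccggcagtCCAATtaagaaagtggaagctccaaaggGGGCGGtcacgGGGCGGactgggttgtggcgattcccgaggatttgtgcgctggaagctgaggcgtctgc
The Rbm15 window held CCAAT boxes starting at -103 and -28 and a GC box at 19, and its GC content was 54.3%. The Rbm15b window was richer in GC, at 75.3%, and held E-boxes at -154 and -86 and GC boxes on the opposite strand at -100, -29 and -24, the last 2 of which overlap. The Alkbh5 window (55.3% GC) held a CCAAT box at -48 and GC boxes at -20 and -9. These matches are letters in a window and were not tested for any effect.

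Among the RNA-binding subunits, Rbm15 counts were high in every wt/wt oocyte and near the counting floor in every mutant. Its level was 55.8, 55.1, 67.7 and 47.4 CPM in wt1, wt3, wt4 and wt5, 19.9 in f/f, and 2.19, 1.82, 2.84, 0.910 and 4.48 in D1, D2, D3, D4 and D7. The mutant values rest on 4, 3, 8, 6 and 9 counts, against 101 to 166 in wt/wt and 90 in f/f. With its libraries summed, the f/f oocyte lay below every wt/wt oocyte and above every mutant. The log2 fold change of mutant over control oocytes was -4.35 (SE 0.53), and it was -3.01 against the f/f oocyte alone. The 2 libraries of the f/f oocyte held 24 and 66 Rbm15 counts.

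Rbm15b, which encodes the paralogue that also joins the writer complex, showed the opposite split, between wt/wt and all other oocytes. It had 1 count in wt1 (0.552 CPM) and 0 in wt3, wt4 and wt5, and a count of 0 allows up to 3 counts, or 1.22 to 1.34 CPM, in each of those 3. The f/f oocyte held 180 counts (39.9 CPM), and the mutants 6.56 (D1), 8.51 (D2), 7.47 (D3), 18.5 (D4) and 20.4 CPM (D7). Where an oocyte had 2 libraries, the title of 1 ended in DNA. That library held the higher Rbm15b level each time, by 1.53 (D4), 2.04 (C3), 2.74 (D3) and 3.61-fold (D7). No wt/wt library has this ending. Libraries without it still held Rbm15b counts in every f/f and mutant oocyte, from 10 (D3 and D7) to 58 (C3). Whether the kind of library had a part in the split was not tested. Against the mean floor of 3 counts in the 3 wt/wt oocytes at 0, the f/f level was at least 31.0-fold higher and the mean of the mutants at least 9.56-fold higher. Mutant and control oocytes overlapped, with a log2 fold change of 0.54 (SE 1.12, 95% interval -1.83 to 2.91, adjusted p = 0.751 by edgeR). With limma voom and sample quality weights on the same oocytes it was 4.59 (adjusted p = 0.000531), past the threshold. Without the f/f oocyte the adjusted p was 0.000278, and against the f/f oocyte alone the fold change was -1.67 on the log2 scale (adjusted p = 0.239). With 1 count in all over the wt/wt oocytes, Rbm15b passed the filter on total counts through the f/f and mutant oocytes, where it was high, so its adjusted p-values with voom and without the f/f oocyte follow from that filter in part and are given as a description.

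The share of Rbm15 in the summed counts of both paralogues shows the 2 patterns together. In wt/wt it was 99.0 to 100%, in the f/f oocyte 33.3% (95% Clopper-Pearson interval 27.7 to 39.3%, counting error only), and in mutants 25.0% (D1), 17.6% (D2), 27.6% (D3), 4.69% (D4) and 18.0% (D7). These shares are a description, since the numerator is the gene chosen by its lower level in mutants. Rbm15 shares none of its 7375 words of 49 bases, the read length, with another gene, and the 27 shared words of Rbm15b (0.415%) all occur in Dcaf1, so the paralogues have no such word in common. Rbm15b overlaps Dcaf1 (Vprbp in the table) on the other strand and Manf on its own. Vprbp stood at 8.06 to 54.3 CPM in wt/wt, 43.9 in f/f and 26.7 to 90.6 in mutants, and Manf at 1.79 to 6.53, 10.9 and 1.37 to 4.97. Both neighbours had counts in every oocyte, including the wt/wt oocytes without an Rbm15b count.

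**Figure D1:**
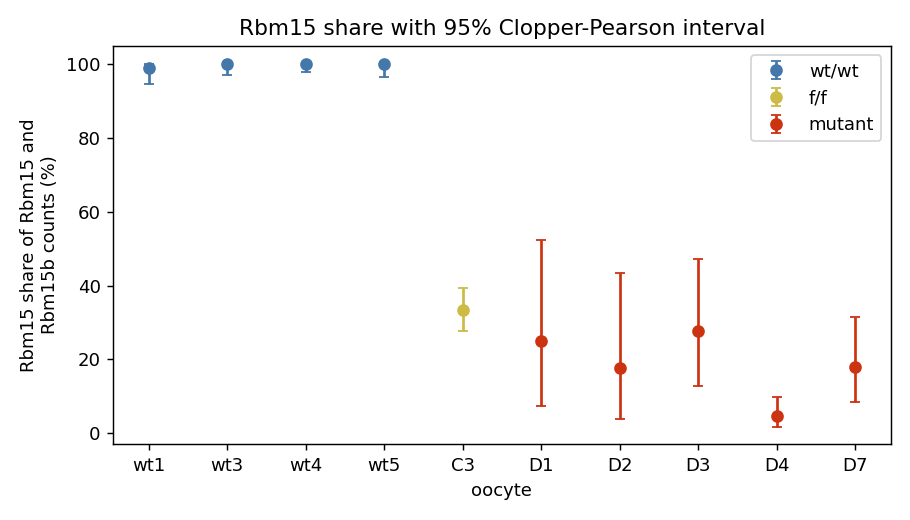
Share of Rbm15 in the summed Rbm15 and Rbm15b counts of each oocyte, in percent, with 95% Clopper-Pearson intervals that cover counting error only. The wt/wt oocytes lie at 99.0 to 100%, the f/f oocyte C3 at 33.3% and the mutants at 4.69 to 27.6%.

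Neither gene of the catalytic core, Mettl3 or Mettl14, passed the test in edgeR. Mettl3, the catalytic subunit, stood at 19.9, 33.6, 46.1 and 30.0 CPM in wt/wt, 36.3 in f/f and 26.4 to 46.3 in mutants, and the groups overlapped. Its log2 fold change was -0.03 (SE 0.36, interval -0.79 to 0.72, adjusted p = 0.953 by edgeR), which leaves room for a change of either sign within that interval. Reads of Mettl3 are less certain, since 18.6% of its 49-base words occur in other genes and it overlaps Tox4 on the other strand.

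Mettl14, the RNA-binding partner of METTL3, varied widely between the wt/wt oocytes. It stood at 4.42, 0.431, 1.22 and 34.0 CPM in wt1, wt3, wt4 and wt5, 9.52 in f/f, and 24.1, 50.4, 21.7, 21.5 and 14.9 in D1, D2, D3, D4 and D7. Every mutant lay above f/f and above 3 of the 4 wt/wt oocytes, while wt5 lay above all mutants but D2. The log2 fold change was 1.41 (SE 0.77, interval -0.21 to 3.02, adjusted p = 0.182 by edgeR), and without wt5 it was 2.74 with an adjusted p of 0.0129. With limma voom on all oocytes it was 3.23 (adjusted p = 0.00229), past the threshold. Counts of Mettl3 over counts of Mettl14 were 0.882 (wt5) to 78.0 (wt3) in wt/wt and 0.699 (D2) to 3.10 (D7) in mutants.

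Wtap, which holds the core in nuclear speckles, had the highest mean level per kilobase of the 10 genes in each group. It stood at 215 to 537 CPM in wt/wt, 433 to 830 in mutants and 1216 in f/f, above both groups. Its log2 fold change was 0.17 (SE 0.42, interval -0.71 to 1.05, adjusted p = 0.792 by edgeR) and its sign turned with scaling to library totals (-0.06).

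Of the cytoplasmic readers, Ythdf3 fell in mutant oocytes. It stood at 307, 317, 302 and 209 CPM in wt1, wt3, wt4 and wt5, 343 in f/f, and 90.2, 97.2, 135, 91.5 and 131 in the mutants D1, D2, D3, D4 and D7. Every mutant lay below every control, f/f included. The log2 fold change was -1.44 (SE 0.31, interval -2.09 to -0.78, adjusted p = 0.00427 by edgeR). It was -1.63 against the f/f oocyte alone, with an adjusted p of 0.167, and with a replicate block on the single libraries the adjusted p was 0.0544.

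Ythdf2, whose product sends methylated mRNA to decay, missed the threshold. It stood at 30.4, 42.2, 24.5 and 49.7 CPM in wt/wt, 24.6 in f/f and 51.4, 35.9, 59.0, 200 and 48.2 in D1, D2, D3, D4 and D7, so that 1 mutant, D4, lay far above the others. The log2 fold change was 1.21 (SE 0.47, interval 0.22 to 2.20, adjusted p = 0.0649 by edgeR). Without D4 it was 0.52. It passed the threshold with DESeq2 (adjusted p = 0.0459) and, in edgeR, with no filter on low counts (0.0475) and without D2 (0.0498). It also passed in edgeR with every library as a sample (0.0172), a fit in which oocytes with 2 libraries, D4 among them, count as 2 samples.

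Ythdf1, linked to translation of methylated mRNA, stood at 24.1 to 46.5 CPM in wt/wt, 15.9 in f/f and 26.8 to 43.8 in mutants. Its log2 fold change was 0.16 (SE 0.38, interval -0.64 to 0.96, adjusted p = 0.781 by edgeR), and it was -0.36 with scaling to library totals. Within the summed counts of the 3 YTHDF genes, Ythdf3 made up 79.6% ± 7.49 in wt/wt (SD, n = 4), 89.4% in f/f and 51.4% ± 13.1 in mutants (SD, n = 5). Ythdf2 made up 10.6% ± 4.19, 6.41% and 32.3% ± 17.4, and Ythdf1 9.84% ± 3.84, 4.15% and 16.2% ± 6.19. Ythdf3 was the larger share in every oocyte but D4, where it was 28.6% and Ythdf2 62.6%.

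The nuclear reader gene Ythdc1 stood at 149 to 213 CPM in wt/wt, 103 in f/f and 56.3 to 163 in mutants. Of the mutants, D7 alone lay within the wt/wt range, and the f/f oocyte lay within the range of the mutants. The log2 fold change was -0.63 (SE 0.36, interval -1.39 to 0.13, adjusted p = 0.202 by edgeR), and against the f/f oocyte alone it was 0.09.

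Alkbh5, the gene of an m6A demethylase, rose in mutant oocytes. It stood at 56.9, 36.2, 54.3 and 66.2 CPM in wt1, wt3, wt4 and wt5, 111 in f/f, and 524, 360, 212, 456 and 152 in D1, D2, D3, D4 and D7. Every mutant lay above every control, and the f/f oocyte lay between wt/wt and the mutants. The log2 fold change was 2.39 (SE 0.42, interval 1.498 to 3.28, adjusted p = 0.00131 by edgeR). Against the f/f oocyte alone it was 1.64 (adjusted p = 0.295). The 2 libraries of an oocyte differed by at most 1.58-fold in Alkbh5. In pairs with at least 20 counts the largest difference was also 1.58-fold in Wtap, 1.64 in Ythdc1 and 1.68 in Ythdf3. It was wider in the other genes, at 2.10 in Ythdf2, 2.57 in Mettl14, 2.67 in Rbm15, 2.73 in Mettl3, 3.14 in Ythdf1 and 3.61 in Rbm15b.

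**Figure D2:**
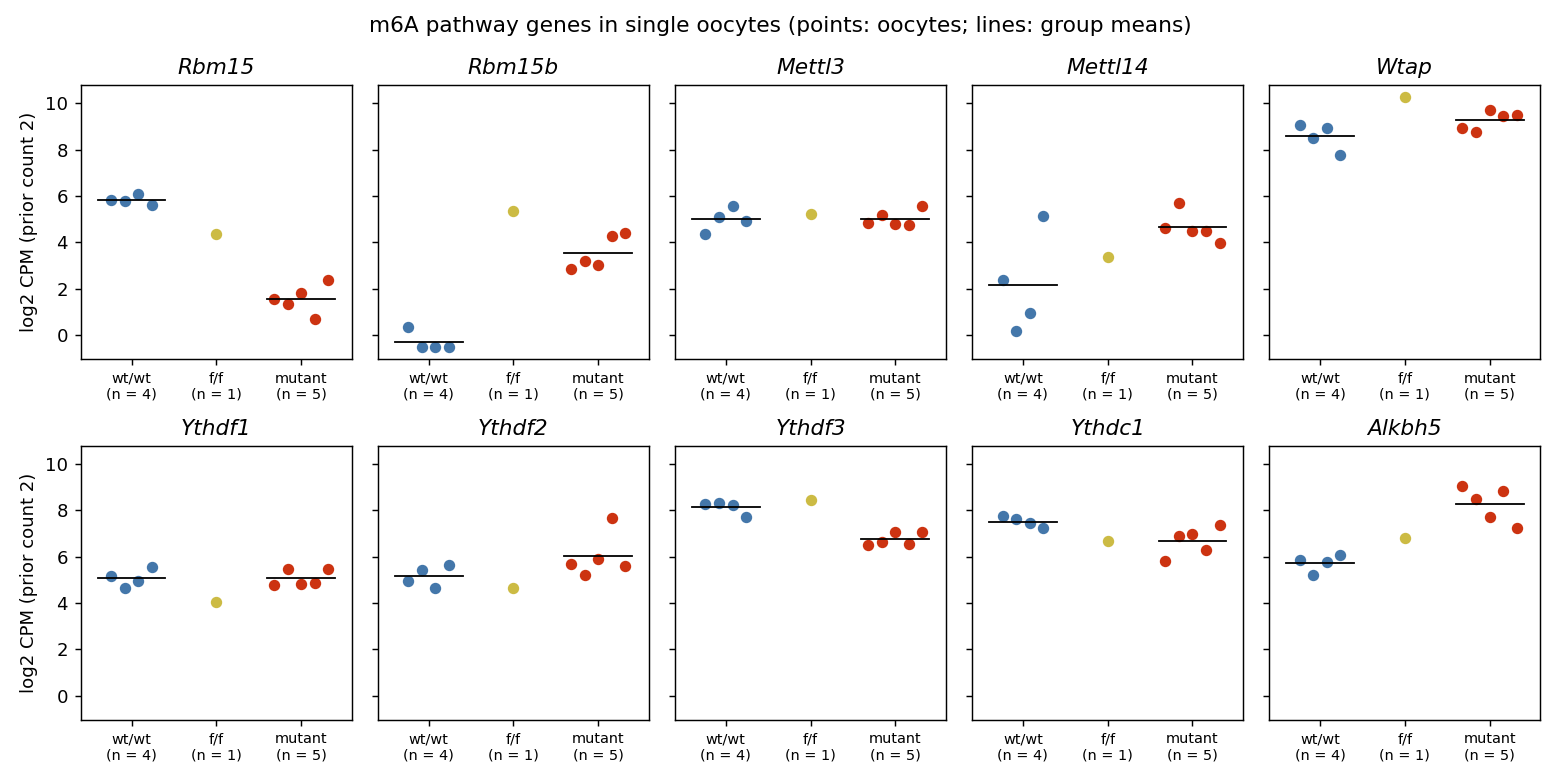
Level of each of the 10 genes in single oocytes, on a log2 CPM axis with a prior count of 2, for wt/wt (blue, n = 4), f/f (yellow, n = 1) and mutant oocytes (red, n = 5), with lines at the means. Mutants lie below every control for Rbm15 and Ythdf3 and above every control for Alkbh5, and Rbm15b sets wt/wt apart from all other oocytes.

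Of the 9 genes chosen by function, 2 were called (22.2%, against 25.9% of all tested genes), Ythdf3 lower and Alkbh5 higher. Mutant and control oocytes did not overlap in 3 of the 10, Rbm15, Ythdf3 and Alkbh5, against 16.2% of all tested genes, a count that includes the gene chosen by this contrast. In 3 of the 10, Rbm15, Rbm15b and Alkbh5, the f/f and mutant oocytes together lay on one side of every wt/wt oocyte, against 16.1% of all tested genes. This count too includes Rbm15, whose side was largely fixed by its choice, and without it 2 of 9 genes remain, of which Rbm15b passed the filter on total counts through its high oocytes. The shares of called genes were close to the background, so the count alone does not set the pathway apart. The median log2 fold change over the 10 genes was 0.16, and over all tested genes it was 0.17.

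Per kilobase of exon, which allows genes to be compared, the order in wt/wt oocytes was Wtap (64.2 ± 22.9 CPM per kilobase, SD, n = 4), Ythdf3 (52.9 ± 9.40), Ythdc1 (13.3 ± 1.99), Ythdf1 (10.2 ± 2.86), Alkbh5 (8.92 ± 2.10), Ythdf2 (8.02 ± 2.49), Rbm15 (7.61 ± 1.13), Mettl3 (6.38 ± 2.13), Mettl14 (1.35 ± 2.17) and Rbm15b (0.0212 ± 0.0424). Over the whole exon length, the ranges of neighbours overlapped at every step but that from Ythdf3 to Ythdc1. In mutants Alkbh5 came after Wtap in this order, at 56.9 ± 26.4 (SD, n = 5), and Rbm15 came last, at 0.330 ± 0.179, below Rbm15b at 1.89 ± 1.02. The assay reads about 3 kb from the 3′ end of mRNA, and the order depends on the length used. With exon length limited to 3 kb, Ythdc1 stood at 60.7 ± 9.07 CPM per kilobase in wt/wt and overlapped with Ythdf3, and the one step without overlap lay between Ythdc1 and the next gene, Rbm15. Rbm15 then moved from place 7 to place 4 of the wt/wt order, and Ythdf1 from place 4 to place 7.

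**Figure D3:**
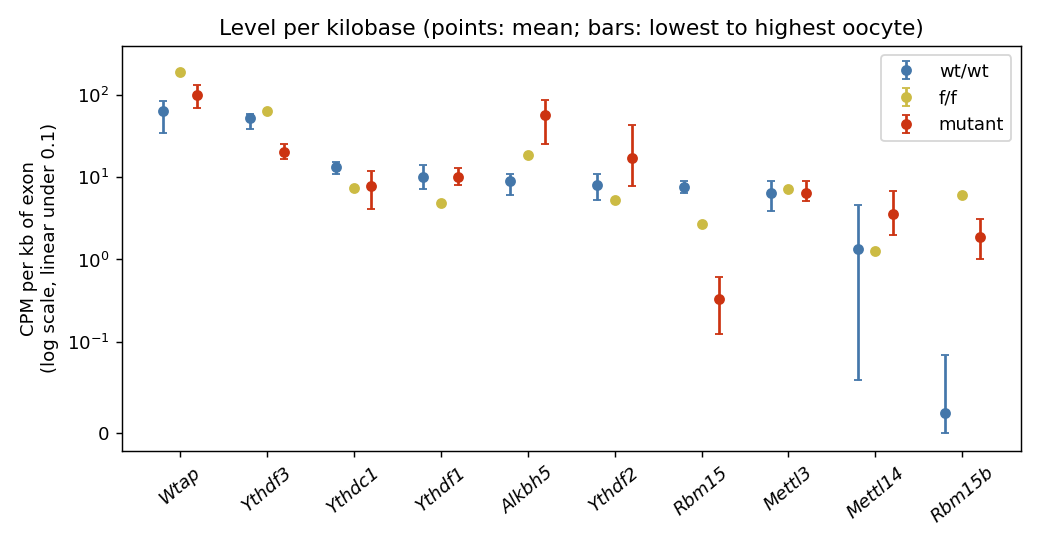
CPM per kilobase of exon of the 10 genes in wt/wt, f/f and mutant oocytes, on a log axis that is linear under 0.1, with points at the mean and bars from the lowest to the highest oocyte. Alkbh5 lies at 8.92 in wt/wt and 56.9 in mutants, and Rbm15 at 7.61 and 0.330.

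Of 25 further genes of the pathway, 21 were tested and 3 were called (14.3%, against 25.9% of all tested genes). Among 7 tested writer genes, 1 rose. Mettl5, which methylates ribosomal RNA, rose from 7.53 ± 4.60 CPM in wt/wt (SD, n = 4) and 11.96 in f/f to 141 (D1), 27.3 (D2), 54.7 (D3), 455 (D4) and 22.9 CPM (D7), with a log2 fold change of 4.04 (SE 0.76, adjusted p = 0.00191 by edgeR). Every mutant lay above every control, though D4 was far above the others. The partner of METTL5, Trmt112, had a log2 fold change of -0.07 (adjusted p = 0.907). Of the writer complex, Virma (1110037F02Rik in the table) had a log2 fold change of 0.30 (adjusted p = 0.5005), Zc3h13 of 0.27 (adjusted p = 0.646) and Cbll1 of -1.23 (adjusted p = 0.0648, all by edgeR). Cbll1 passed the threshold, lower in mutants, with wt/wt alone as control (adjusted p = 0.0308 by edgeR), and also with DESeq2, limma voom and library totals. It passed too with every library as a sample (0.0311 by edgeR), where oocytes with 2 libraries count as 2 samples. Cbll1 stood at 14.4 to 26.9 CPM in wt/wt, 7.75 in f/f and 4.48 to 10.9 in mutants, so the f/f oocyte lay within the range of the mutants.

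Of 8 tested reader genes, 2 fell, and the 25% called was close to the 25.9% of all tested genes. Igf2bp3, which binds and stabilises methylated mRNA, stood at 150, 215, 218 and 182 CPM in wt/wt and 347 in f/f, and at 54.1, 59.0, 70.4, 34.1 and 57.2 in D1, D2, D3, D4 and D7. Its log2 fold change was -2.02 (SE 0.35, adjusted p = 0.00118 by edgeR), while Igf2bp2 had -0.14 (adjusted p = 0.794). Hnrnpa2b1, a nuclear RNA-binding protein tied to m6A, stood at 221 to 268 CPM in wt/wt, 233 in f/f and 68.1 to 134 in mutants, with a log2 fold change of -1.21 (SE 0.32, adjusted p = 0.0129). The f/f oocyte lay above wt/wt in Igf2bp3 and within their range in Hnrnpa2b1. Against the f/f oocyte alone, edgeR called 0 of the further pathway genes, Mettl5, Igf2bp3 and Hnrnpa2b1 included (1 of them all at an unadjusted p under 0.05), and DESeq2 called 2. The other eraser gene, Fto, was low in all groups, at 2.58 to 7.61 CPM in wt/wt, 8.42 in f/f and 0.497 to 5.47 in mutants (log2 fold change -0.73, adjusted p = 0.406 by edgeR). For the 4 genes that supply the methyl donor SAM (Mat1a, Mat2a, Mat2b and Ahcy) and for Spen, the large relative of Rbm15, adjusted p by edgeR ran from 0.147 (Mat2a) to 0.953 (Spen).

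**Figure D4:**
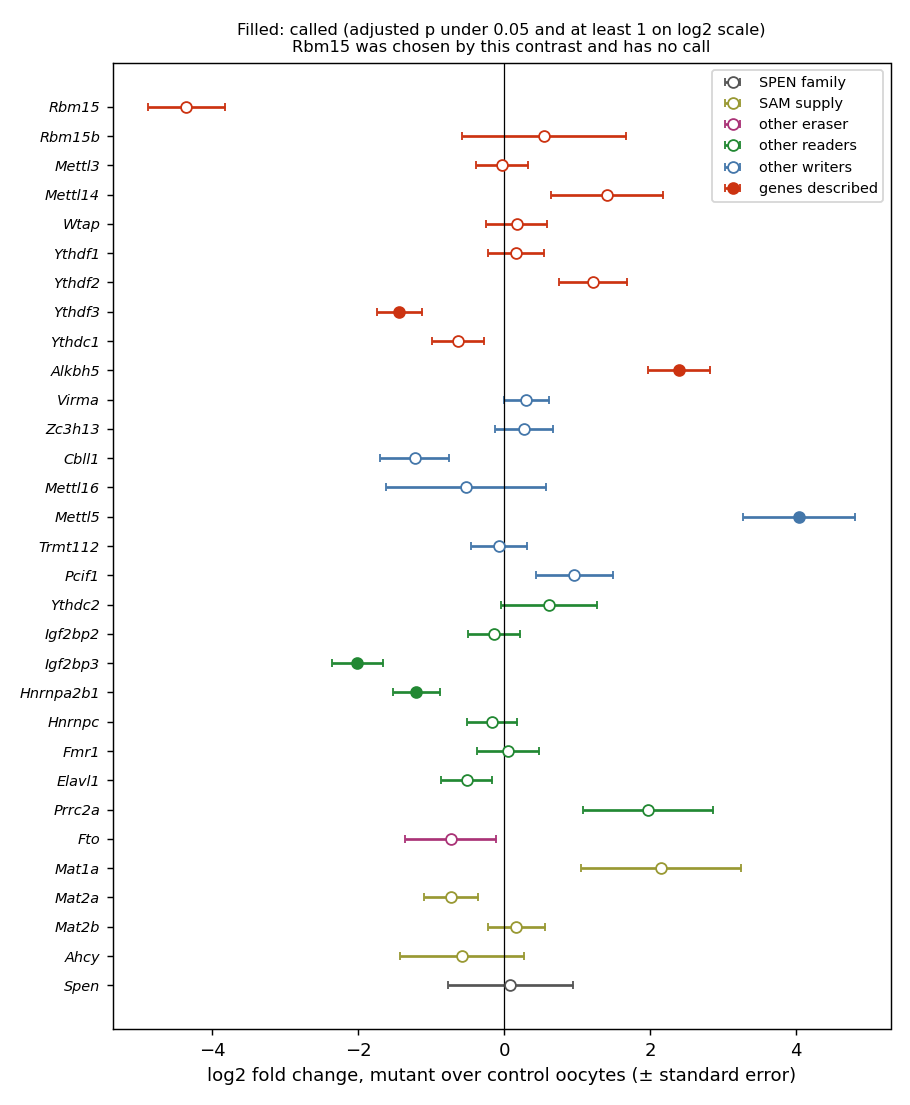
Log2 fold change of mutant over control oocytes with its standard error for the 10 genes (red) and 21 further genes of the pathway. Filled points were called, and Rbm15, at -4.35, has no call because this contrast chose it. Alkbh5 (2.39) and Mettl5 (4.04) rose, and Ythdf3 (-1.44), Igf2bp3 (-2.02) and Hnrnpa2b1 (-1.21) fell.

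The genes whose pattern over the 10 oocytes was most like that of Rbm15 were found by the root mean square difference of centred log2 CPM, of which the median over all tested genes was 2.31. They were 1700066M21Rik (0.293), Sycp2, a gene of the synaptonemal complex (0.543), Lig4, a DNA ligase of end joining (0.588), Lrriq3 (0.589) and Acvr1, an activin and BMP receptor gene (0.601). 1700066M21Rik stood at 113 to 203 CPM in wt/wt, 56.0 in f/f and 3.64 to 13.4 in mutants. All 10 oocytes entered this measure, so the likeness of these levels to those of Rbm15 was fixed by the choice. Ythdf3, the most like Rbm15 of the other 9 genes, ranked 649 of 9197 by this measure.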

How the data were processed

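Single oocytes were processed by poly(A) priming and read as single-end 49-base reads. The authors aligned the reads to mm10 with TopHat2 2.0.6 and used HTSeq to count reads over RefSeq genes, and deposited a table of raw counts; per the labels HTSeq was version 0.5.3p9. The use of strand in counting is not given in the sources used here.

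From the counts, the 2 libraries of C3, D3, D4 and D7, which the labels number as separate oocytes, were summed, which gave 10 oocytes from 14 libraries of 929452 to 3741331 counts. Genes with no count were removed and the top 60% by total count kept (9198 of 15432). Mutant and control oocytes were compared with edgeR 4.0.16 in R 4.3.3 (TMM over library sizes from all genes, quasi-likelihood test, genotype as the one term). DESeq2 1.42.0 and limma 3.58.1 were alternatives. P-values measure the spread between these oocytes, whose females are not labelled. Gene models came from GENCODE on GRCm38.

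The genes, lists and tests were chosen with earlier results of these data known. The named genes were the 10 genes, each called gene of the further lists, Fto, Virma, the 5 genes most like Rbm15 and Kdm1a; other genes named were chosen after their values were seen. Library sizes from the tested genes alone were also tried, after seeing that they gave the count of an earlier analysis of these data, and were kept as an alternative.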

Additional observations from a re-analysis of the deposited data

Results flagged for a closer look

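A single oocyte stood apart from the rest of its group in 7 of 30 sets. The measure was the gap to its nearest neighbour over the range of the group (Dixon's ratio, at its 95% limit). Independent sets from a normal distribution would give 1.5 by chance. The wt/wt oocytes enter both the wt/wt and the control sets, so the 7 cannot be read against the 1.5. In Rbm15b, wt1 had the only count among the wt/wt oocytes (ratio 1), which is a single count, and the f/f oocyte C3 stood above the other controls at 39.9 CPM (0.986). In Mettl14, wt5 stood above the wt/wt oocytes (0.881) and above all controls (0.729) at 34.0 CPM, and D2 above the mutants (0.743) at 50.4 CPM. In Ythdf2, D4 stood above the other mutants at 200 CPM (0.859). In Ythdf3, wt5 was the lowest of the wt/wt oocytes at 209 CPM (0.862), and still above every mutant.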

How the results depend on the processing

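Among the 9 genes chosen by function, 2 were called in the reported fit, 4 with limma voom (Rbm15b and Mettl14 added), 3 with DESeq2, no filter or every library as a sample (Ythdf2 added), 3 with wt/wt alone as control (Rbm15b added), 1 with a replicate block on single libraries and 0 against the f/f oocyte alone (unadjusted p under 0.05 for 2 in edgeR and 3 in DESeq2, neither tool calling any); of the further pathway genes, 3, 5 with voom (Cbll1 and Ythdc2 added) and 0 against f/f alone (2 in DESeq2); of all genes, 2385, 966 with the block and 3 against f/f alone (1674 at an unadjusted p under 0.05; 559 called by DESeq2). That setting has 1 control oocyte, assumed to vary like the mutants. Leaving out 1 oocyte gave 2 to 3, 3 to 4, and 1607 (without D1) to 2885 (without C3). Library numbers did not pair the samples (correlations 0.07, 0.10 and -0.09). Rbm15b passed the filter on total counts through the oocytes where it was high. Its calls with voom and with wt/wt alone are therefore given as a description. Library sizes over the tested genes, added after seeing the data, called 2384 genes and the same 2 and 3 genes.

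Signs turned for 5 genes, none of them called in the reported fit: Wtap, from 0.17 to -0.0595 (library totals), -0.11 (every library as a sample), -0.92 (f/f alone) and, over oocytes left out, -0.0195 to 0.67; Ythdf1, from 0.16 to -0.36 (totals), -0.0014 (wt/wt alone as control) and -0.0014 to 0.40 (oocytes left out); Mettl3, from -0.03 to 0.0274 (filterByExpr), 0.0467 (libraries with the suffix DNA), 0.0152 (wt/wt alone) and -0.17 to 0.11 (oocytes left out); Rbm15b to -1.67 and Ythdc1 to 0.0892 (f/f alone). The cause was not tested. With library totals the median over all genes shifted by -0.39, and 36.7% of calls were higher, against 56.7% with TMM. Ythdf3 and Alkbh5 kept their direction in all 25 alternatives, with log2 fold changes of -1.85 to -1.29 and 1.64 to 2.69, and adjusted p from 1.8e-05 to 0.167 and from 7.9e-07 to 0.295. Not all of the 25 are separate checks of direction. The setting with adjusted p alone keeps the reported fold changes, and wt/wt alone as control is the same fit as leaving out C3. Of the 5 genes most like Rbm15, 4 were shared under each of 2 other measures. Depth limits Rbm15 in mutants and Rbm15b in wt/wt.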
